A study of Mus musculus with 10 samples.

Results

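The myogenic transcription factors are the proteins that commit embryonic cells to skeletal muscle and carry them into differentiation. The 9 genes followed here were chosen by name from the 53465 genes of the count table: Pax3, Pax7, Tcf21, Msc, Myf5, Myod1, Myog, Myf6 and Mef2c. Each has 1 row in the table, and all 9 passed the filter on low counts. They were read in bulk RNA-seq of the whole pinna prominence, the forming outer ear, micro-dissected from mouse embryos at stage E14.5 (5 wild-type, WT, and 5 mEC1 dup/dup). The mEC1 dup/dup mice carry, in every cell and on each allele, an additional copy of mEC1, an enhancer of the homeobox gene Hmx1, inserted at the endogenous locus by CRISPR/Cas9. Both groups were on a C57BL/6J background, and the labels call the second group Knock-In (KI). The paper's reporting summary states, for its mouse studies in general, that replicates came from separate litters. Which libraries shared a litter is not stated there. The comparison asks how the additional enhancer copies alter the genes expressed in the pinna prominence, here the genes that control its muscle.

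Skeletal muscle forms in steps. Progenitors marked by the paired-box factors Pax3 and Pax7 are determined to the muscle fate by the basic helix-loop-helix (bHLH) factors Myf5 and Myod1, and then differentiate under Myog and Myf6, with Mef2c as a partner that acts on many of the same target genes. In muscles of the head, which include those of the ear, the related bHLH factors Tcf21 and Msc take part early, upstream of Myf5 and Myod1. Myf5, Myod1, Myog and Myf6 make up the family of myogenic regulatory factors (MRFs). Several of the 9 genes are also expressed outside muscle: Pax3 in neural crest derivatives, Mef2c in endothelium and neural crest, and Tcf21 and Msc in mesenchyme.

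Of the 9 genes, 1 fell in mEC1 dup/dup, 8 did not pass the test and none rose. The gene that fell was Myf6, a late MRF, whose level in mEC1 dup/dup was 34.8% of that in WT (95% confidence interval 24.1% to 50.1%). This call was lost in 3 of 22 alternative fits, those with a covariate for Xist or for embryonic globin and the one without the 3 mEC1 dup/dup libraries with most Xist reads. Myod1 and Myog, the most abundant MRFs, were at 106% (interval 88.4% to 128%) and 109% (interval 87.7% to 135%) of their WT levels. A gene was called changed where the quasi-likelihood test of edgeR gave a p of at most 0.05, adjusted by the Benjamini-Hochberg method over 16426 genes, and the average log2 CPM reached 1 (CPM, normalized counts scaled to a common library size). Over all tested genes 2.64% were called, 1.81% lower and 0.834% higher in mEC1 dup/dup. At an unadjusted p under 0.05, 2 members were lower (Myf6 and Pax3) and none higher, against 9.08% and 7.1% of all genes, and DESeq2 and limma-voom also called 0 members higher. Fold changes are given as log2 of mEC1 dup/dup over WT. The median log2 fold change of the 9 genes was -0.18, against -0.0041 over all tested genes. Of the 9, 6 were below 0, as were 51.2% of all tested genes. In bulk tissue, fewer muscle cells and less RNA of a gene per muscle cell cannot be told apart.

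The libraries held 17461544 to 18462073 counts each. Hmx1 was at 26.6 ± 3.0 CPM in WT and 66.2 ± 9.11 CPM in mEC1 dup/dup (SD, n = 5 each), and its groups did not overlap. Second-arch and outer ear genes were present in every library: the summed level of 10 such genes, among them Hmx1 itself, Hoxa2, Eya1 and Prrx1, was 1461 to 1788 CPM in WT and 1608 to 2019 CPM in mEC1 dup/dup. All 10 estimates were above 0, Hmx1 was called higher, and 3 of the 10 were higher at an unadjusted p under 0.05. With a covariate for the embryonic globin share 0 of the 10 were called higher, so the Hmx1 call was lost there. DESeq2 called 2 higher. Skeletal muscle genes were present in every library as well. The groups differed in further measures. Xist, transcribed from the inactive X chromosome of female cells, had 2 to 5 counts in WT, and 12812, 19040, 18165, 2096 and 0 in mEC1 dup/dup, in replicate order. Libraries with many Xist counts were thus all mEC1 dup/dup, so the sex of the embryos and the genotype cannot be fully told apart. Of the globin counts, those of the embryonic forms (Hba-x, Hbb-y and Hbb-bh1) were 18.4% to 23.3% in WT and 32.5% to 35.6% in mEC1 dup/dup. This share separates the genotypes, so it and the genotype cannot be told apart. All libraries carry the stage label E14.5, and whether the groups differed in stage within that label was not tested.

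**Figure D1:**
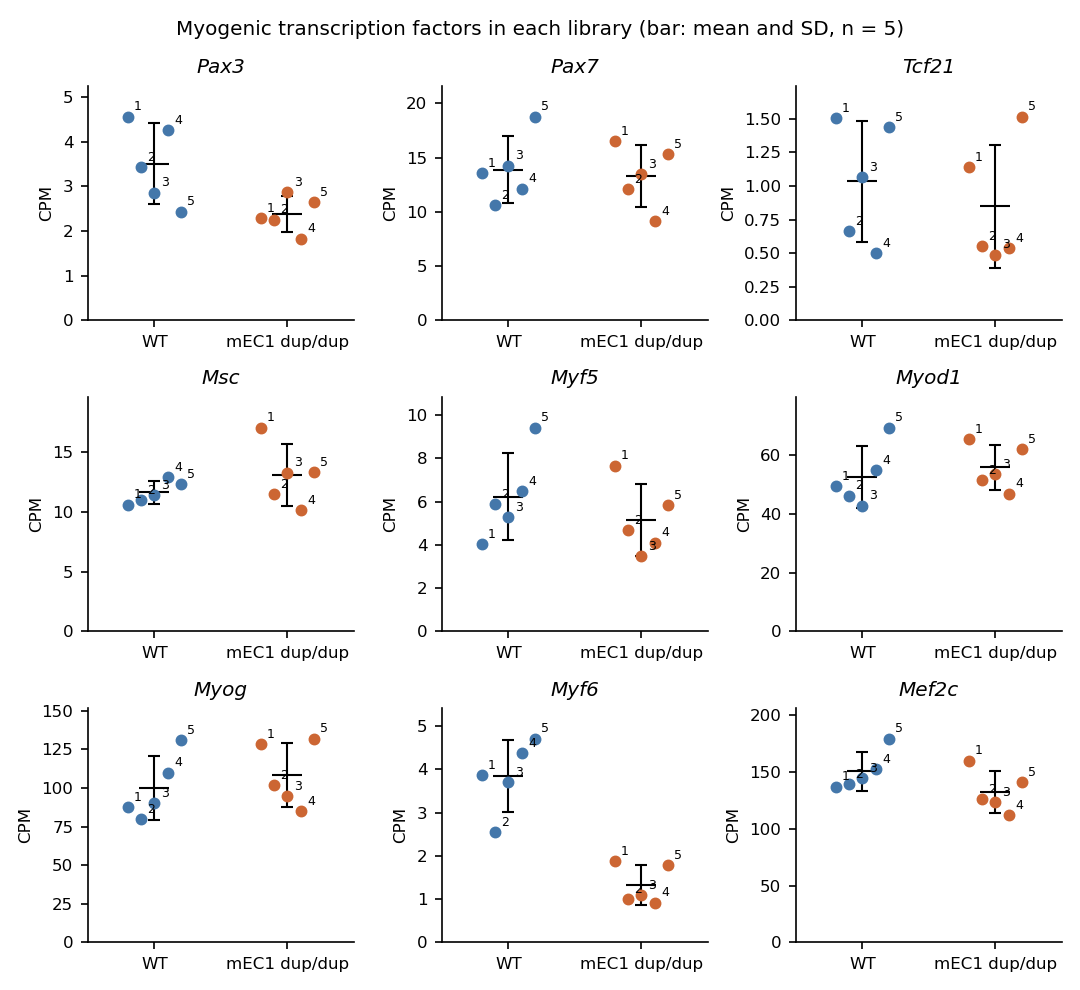
Level of each of the 9 genes in CPM (linear axis from 0) in the 5 WT and 5 mEC1 dup/dup libraries. Points are libraries with their replicate number, and bars are the mean and SD. For Myf6 all 5 mEC1 dup/dup libraries sit below all 5 WT libraries, and for the other 8 genes the groups overlap.

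Myf6 (ENSMUSG00000035923) lies on the minus strand of chromosome 10 of GRCm39 from 107328712 to 107330656. Its nearest protein-coding neighbour is Myf5 (ENSMUSG00000000435, chromosome 10 from 107318769 to 107321995), on the same strand and 6716 bp away. Ptprq follows on the other side at 20787 bp. The 2 MRF genes thus sit side by side, and only one of them passed the test. To show the sequences next to the starts of the 4 MRF genes, the 150 bases upstream of each canonical start were read from GRCm39, using GENCODE release M39. They are written 5′ to 3′ on the strand of the gene, and the base next to the start is last. Capitals mark an E-box (CANNTG, the sequence bound by bHLH factors), the MEF2 core (an A/T-rich motif of 10 letters) or the MEF3 sequence (TCAGGTTTC), each searched on both strands.
Myf5, chr10:107321996-107322145, minus strand: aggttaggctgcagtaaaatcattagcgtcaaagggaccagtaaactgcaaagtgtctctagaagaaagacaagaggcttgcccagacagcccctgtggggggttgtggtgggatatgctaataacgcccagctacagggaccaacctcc
Myod1, chr7:46025720-46025869, plus strand: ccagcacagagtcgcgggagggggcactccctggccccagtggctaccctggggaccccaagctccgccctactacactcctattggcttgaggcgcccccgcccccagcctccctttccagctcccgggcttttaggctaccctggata
Myog, chr1:134217557-134217706, plus strand: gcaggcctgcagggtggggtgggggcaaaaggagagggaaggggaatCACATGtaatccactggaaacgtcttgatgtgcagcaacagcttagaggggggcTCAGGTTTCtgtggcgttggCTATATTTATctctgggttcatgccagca
Myf6, chr10:107330657-107330806, minus strand: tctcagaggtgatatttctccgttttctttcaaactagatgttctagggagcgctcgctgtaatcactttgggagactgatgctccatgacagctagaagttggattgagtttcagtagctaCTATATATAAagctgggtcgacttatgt

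The windows of Myf6 and Myog both held a MEF2 core close to the start, from 28 and 29 bases upstream. Such a match was found in 892 of the 21770 windows of protein-coding genes (4.10%). The match in the Myf6 window overlaps TATAAA, the sequence of a TATA box, so its letters fit both. The Myog window also held an E-box and the MEF3 sequence, which were present in 46.1% and 0.294% of all windows. The windows of Myf5 and Myod1 held none of these motifs. CAAGTG, the core bound by HMX proteins and itself one form of the E-box, was absent from the windows of all 9 genes and present in 7.04% of all windows. Matches describe letters in these windows and were not tested as binding sites.

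Counts of single libraries are listed in the order of replicates 1 to 5. Myf6 counts were 67, 46, 66, 79 and 85 in the WT libraries. In the mEC1 dup/dup libraries they were 33, 18, 20, 17 and 33. The groups did not overlap, as for 1 of the 9 members. Of all tested genes 5.07% were without overlap, 2.75% with mEC1 dup/dup below WT and 2.33% with it above. Summed over the libraries of a genotype, Myf6 had 343 counts in WT (95% Poisson interval 308 to 381) and 121 in mEC1 dup/dup (interval 100.4 to 144.6), where intervals cover counting error only. Its level was 3.84 ± 0.83 CPM in WT and 1.33 ± 0.46 CPM in mEC1 dup/dup (SD, n = 5 each). This is a log2 fold change of -1.52, with a standard error of 0.24 and an adjusted p of 0.00804 (edgeR, as above). With each library left out in turn, Myf6 was called lower in 10 of 10 fits, with log2 fold changes from -1.68 to -1.41. Without the 3 mEC1 dup/dup libraries with most Xist reads the log2 fold change was -1.50 with an adjusted p of 0.177 in the same edgeR test, a fit with 2 mEC1 dup/dup libraries. A covariate for log2 CPM of Xist gave -1.19 (adjusted p = 0.384), and one for the embryonic globin share -1.58 (adjusted p = 0.898). In these 3 fits 0 or 1 gene was called lower over all genes.

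Myod1 and Myog stayed within the spread of the replicates. Myod1 (ENSMUSG00000009471, chromosome 7 from 46025870 to 46028526, plus strand), which determines the muscle fate together with Myf5, had 854, 833, 761, 988 and 1250 counts in the WT libraries. It had 1144, 933, 984, 868 and 1142 in the mEC1 dup/dup libraries. The groups overlapped throughout, and the highest value was that of a WT embryo. The log2 fold change was 0.09, with a 95% confidence interval from -0.18 to 0.36 (adjusted p = 0.786 from the edgeR test). Myog (ENSMUSG00000026459, chromosome 1 from 134217707 to 134220287, plus strand), which is needed for myoblasts to form fibres, had 1515, 1439, 1610, 1983 and 2366 counts in the WT libraries. It had 2247, 1845, 1748, 1580 and 2437 in the mEC1 dup/dup libraries. WT replicate 5 and mEC1 dup/dup replicates 1 and 5 were high for both genes, and mEC1 dup/dup replicate 4 was the lowest of its genotype for both. The log2 fold change of Myog was 0.12, with an interval from -0.19 to 0.43 (adjusted p = 0.745 from the edgeR test).

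Myf5, the earliest MRF in most muscle progenitors, had 70, 106, 94, 117 and 170 counts in the WT libraries. Its counts were 134, 85, 64, 76 and 108 in the mEC1 dup/dup libraries. It varied more between replicates than Myod1, with a coefficient of variation of 32.2% in WT and 32.0% in mEC1 dup/dup, against 19.8% and 13.7%. The log2 fold change was -0.27 (95% confidence interval -0.80 to 0.25, adjusted p = 0.641 from the edgeR test), so a fall to 57.6% of WT lies within the interval and a fall as large as that estimated for Myf6 lies outside it.

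Mef2c (ENSMUSG00000005583, chromosome 13 from 83652064 to 83815555, plus strand) encodes a MADS-box factor that works with the MRFs on muscle target genes. It had 2371, 2509, 2579, 2755 and 3237 counts in the WT libraries. In the mEC1 dup/dup libraries it had 2796, 2284, 2278, 2077 and 2609. Values of 3 mEC1 dup/dup libraries were below every WT value, and the other 2 lay within the WT range. The log2 fold change was -0.18 (95% confidence interval -0.39 to 0.018, adjusted p = 0.361 from the edgeR test). Endothelial cells also express Mef2c. The 12 endothelial genes, Cdh5 and Pecam1 among them, summed to 595 to 737 CPM in WT and 627 to 692 CPM in mEC1 dup/dup, and none was called in either direction. At an unadjusted p under 0.05 1 was lower and none higher, and DESeq2 and limma-voom called 0 of them. The part of endothelium in the Mef2c level was not tested.

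**Figure D2:**
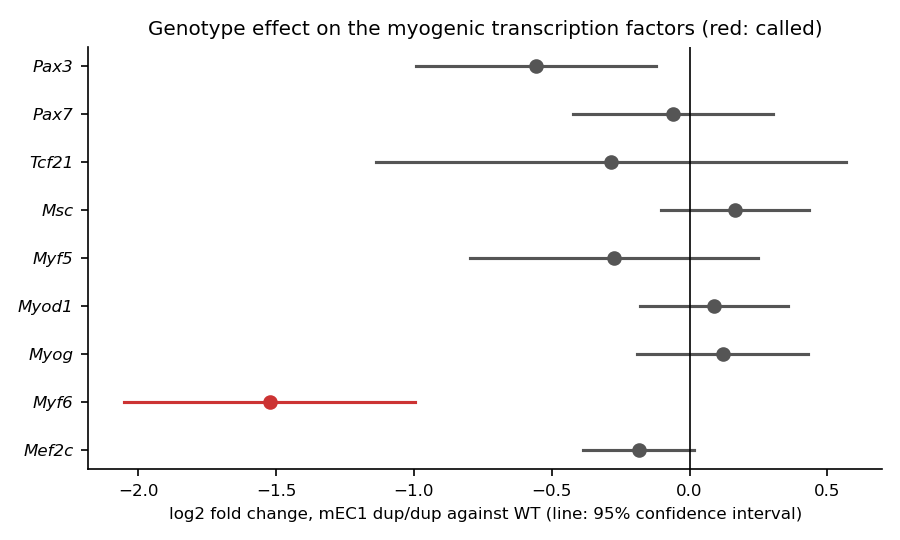
Log2 fold change of each of the 9 genes in mEC1 dup/dup against WT (x axis), with its 95% confidence interval as a line. Myf6, in red, is the gene called lower at -1.52, and its interval from -2.05 to -0.996 does not reach the estimates of the other 8 genes.

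The progenitor factors did not pass the test either. Pax7 (ENSMUSG00000028736, chromosome 4 from 139464373 to 139560839, minus strand), a marker of muscle progenitors and later of satellite cells, had 235, 192, 254, 219 and 339 counts in the WT libraries. It had 289, 220, 248, 170 and 283 in the mEC1 dup/dup libraries. The groups overlapped almost completely, and the log2 fold change was -0.06 (95% confidence interval -0.42 to 0.30, adjusted p = 0.901 from the edgeR test). Its sign turned without WT replicate 5 (0.074) and without mEC1 dup/dup replicate 4 (0.050).

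Pax3 (ENSMUSG00000004872, chromosome 1 from 78077904 to 78173771, minus strand), which acts in progenitors of trunk and limb muscle and in the neural crest, had 79, 62, 51, 77 and 44 counts in the WT libraries. In the mEC1 dup/dup libraries it had 40, 41, 53, 34 and 49. The groups overlapped through WT replicates 3 and 5. The 95% confidence interval of its log2 fold change, -0.99 to -0.12, left out 0, with an unadjusted p of 0.0159, while the adjusted p of the edgeR test was 0.179. Pax3 is also a gene of melanoblasts and Schwann cell precursors. The summed level of 10 melanoblast genes was 169 to 191 CPM in WT and 143 to 165 CPM in mEC1 dup/dup, without overlap, and in 9 of the 10 the estimate was below 0. None of the 10 was called by edgeR or limma-voom, 3 were lower at an unadjusted p under 0.05, and 1 was called lower by DESeq2 and by edgeR without WT replicate 5. The 10 Schwann cell genes summed to 243 to 377 CPM in WT and 215 to 299 CPM in mEC1 dup/dup, and 8 of the 10 estimates were below 0. None of the Schwann cell genes was called by edgeR with genotype as the only term, DESeq2 or limma-voom, 1 was called lower with the replicate block, and 1 was lower at an unadjusted p under 0.05. The part of these cells in the Pax3 level was not tested.

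Msc (ENSMUSG00000025930, chromosome 1 from 14823503 to 14826266, minus strand) encodes musculin, a bHLH repressor of the pharyngeal muscle progenitors. It had 184, 199, 203, 233 and 223 counts in the WT libraries. In the mEC1 dup/dup libraries it had 299, 209, 245, 188 and 247. In CPM all WT values (10.6 to 12.9) lay within the range of the mEC1 dup/dup values (10.1 to 17.1), and the log2 fold change was 0.17 (95% confidence interval -0.10 to 0.44, adjusted p = 0.572 from the edgeR test). Antisense gene Gm9947 overlaps 23.2% of the exonic bases of Msc and had 0 to 10 counts per library. Tcf21 (ENSMUSG00000045680, chromosome 10 from 22692803 to 22696073, minus strand), which acts beside Msc in the pharyngeal arches, was the lowest of the 9 genes at 26, 12, 19, 9 and 26 counts in the WT libraries. It had 20, 10, 9, 10 and 28 in the mEC1 dup/dup libraries. The groups overlapped, and at this depth its log2 fold change of -0.28 had an interval from -1.14 to 0.57 (adjusted p = 0.786 from the edgeR test). Tcf21 was also the member under an average log2 CPM of 1. Gm10824, antisense to 18.5% of its exonic bases, had 0 to 5 counts per library.

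To compare the genes with each other, levels were expressed per kilobase of annotated exon (RPKM, CPM divided by exon length in kilobases). In WT the highest level was that of Myog (65.8 ± 13.7 RPKM), followed by Myod1 (27.7 ± 5.49), Mef2c (8.78 ± 1.00) and Msc (4.38 ± 0.36; SD, n = 5 throughout). These 4 did not overlap between libraries. The exon length of Mef2c joins all its isoforms, which lowers its RPKM. Myf5 (2.98 ± 0.96 RPKM), Myf6 (2.71 ± 0.58) and Pax7 (2.37 ± 0.52) overlapped with each other in WT, and Myf5 reached into the range of Msc. Pax3 (0.57 ± 0.15 RPKM) and Tcf21 (0.38 ± 0.16) were lowest and overlapped too. In mEC1 dup/dup the order was the same except that Myf6 (0.94 ± 0.33 RPKM) came below Pax7 (2.27 ± 0.49), with no overlap between the libraries of both genes. Of the summed RPKM of the 4 MRFs, Myf6 made up 2.74% ± 0.36 in WT and 0.88% ± 0.15 in mEC1 dup/dup (SD, n = 5 each). The shares of Myod1 (28.0% and 28.4%) and Myog (66.3% and 68.4%) overlapped between the genotypes.

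Ratios within a library do not depend on its depth. They are given as a description, since the genes were set beside each other with their levels known. Per 1000 Myod1 counts there were 78.5, 55.2, 86.7, 79.96 and 68.0 Myf6 counts in the WT libraries. In the mEC1 dup/dup libraries there were 28.8, 19.3, 20.3, 19.6 and 28.9. The lowest WT ratio was thus well above the highest mEC1 dup/dup ratio. Per 100 Myf5 counts, the neighbour on chromosome 10, there were 43.4 to 95.7 Myf6 counts in WT and 21.2 to 31.3 in mEC1 dup/dup. Myog per 100 Myod1 counts was 190 ± 16.1 in WT and 193 ± 14.2 in mEC1 dup/dup (SD, n = 5 each), and the groups overlapped. Pax7 per 100 Myod1 counts was 26.6 ± 4.45 and 23.7 ± 2.39, and overlapped as well. Mef2c per 100 Myod1 counts was 259 to 339 in WT and 228 to 245 in mEC1 dup/dup, without overlap, although the groups overlapped for each gene alone.

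**Figure D3:**
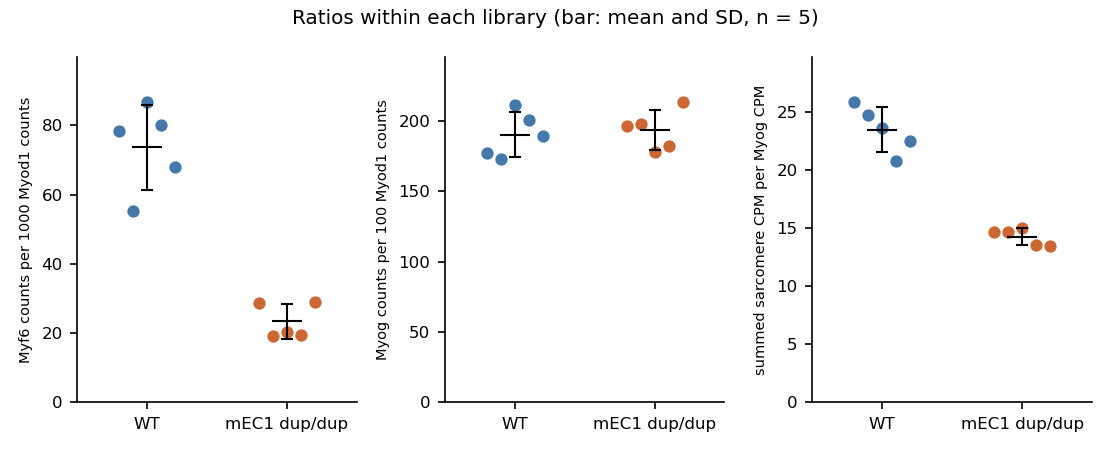
Ratios within each library (y axes, linear from 0): Myf6 counts per 1000 Myod1 counts, Myog counts per 100 Myod1 counts, and the summed CPM of the sarcomere genes per CPM of Myog. Points are the 5 libraries of a genotype and bars the mean and SD. The left and right ratios separate the genotypes, and the middle one, at 190 in WT and 193 in mEC1 dup/dup, does not.

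Most members varied together among the embryos of a genotype. After the mean of each genotype was subtracted from log2 CPM, Pearson's r over the 10 libraries ranged from 0.60 to 0.93 in the 15 pairs of Pax7, Myf5, Myod1, Myog, Myf6 and Mef2c (median 0.83). Embryos of either genotype that were high in Myog were thus high in Myf6, and the genotypes formed separate clouds for this pair. Over the 28 pairs that also include Tcf21 and Msc, r ranged from 0.30 to 0.93 (median 0.78). Pax3 stood apart, with r from -0.44 to 0.17 in its 8 pairs. All points share libraries, and these values are a description. The amount of muscle in the dissected tissue was not measured, and its part in them was not tested.

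**Figure D4:**
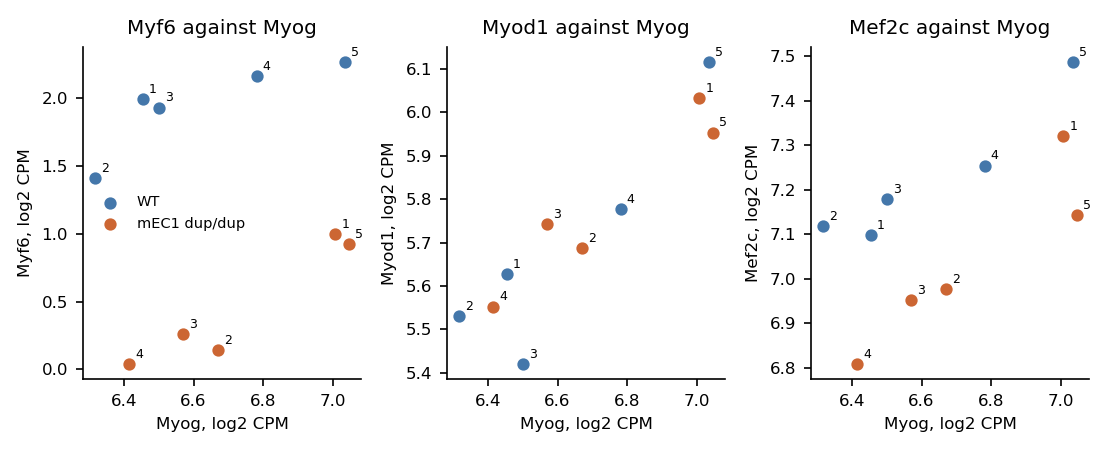
Myf6, Myod1 and Mef2c (y axes, log2 CPM) against Myog (x axis, log2 CPM) in the 10 libraries, with replicate numbers. Myod1 follows Myog alike in both genotypes, whereas at a similar Myog level the mEC1 dup/dup libraries lie lower for Myf6 in every library.

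Among the 14083 genes that reached an average log2 CPM of 1, those whose centred log2 CPM was most like that of Myog over the 10 libraries were Ablim3 (r = 0.99), Tnni1 (0.99) and Myl1 (0.99). The last 2 encode sarcomere proteins. Most like Myod1 were Des (0.97), Myl4 (0.96) and Gjd4 (0.96), and most like Mef2c were Nexn (0.99), Ak1 (0.97) and Casq2 (0.97). For Pax7 these were Mypn (0.98), Mylk4 (0.97) and Atp2a1 (0.96), of which Mypn encodes a Z-disc protein and Atp2a1 the calcium pump of fast fibres. Myf6 was closest to Myoz2 (0.95), Casz1 (0.95) and Sgca (0.94), a Z-disc gene, a zinc finger factor and a gene of the sarcoglycan complex. For Myf5 the closest were Map3k14 (0.97), Casq1 (0.97) and Ints8 (0.94). The genes closest to Pax3 (Fdxr, Snrnp35 and Gm19221) and Msc (Dock11, Hbs1l and Snf8) are not muscle genes, at r from 0.92 to 0.94. Being the highest of 14083 values, they are high by selection.

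The genes around the members were read from lists that were chosen with earlier results of these data known, so their counts are descriptions. Of 22 genes of head and limb muscle progenitors, all tested, 1 rose and none fell, with a median log2 fold change of 0.03. At an unadjusted p under 0.05, 1 was lower and 2 were higher, and DESeq2 and limma-voom also called 0 lower, with 2 and 1 higher. The one that rose was Dmrt2, a DM-domain factor of the somite that acts upstream of Myf5, at 20.6 CPM in WT and 27.3 CPM in mEC1 dup/dup (log2 fold change 0.41, standard error 0.08, edgeR adjusted p = 0.0182). It lost this call with a covariate for Xist or for the globin share, without the 3 mEC1 dup/dup libraries with most Xist reads, and without WT replicate 1, mEC1 dup/dup replicate 2 or mEC1 dup/dup replicate 3, and without mEC1 dup/dup replicate 1 3 genes of the list were called higher. Tbx1, which acts at the top of the head muscle cascade, did not pass the edgeR test (adjusted p = 0.639), with an estimate of 0.19 on the log2 scale and a standard error of 0.16.

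Of 17 bHLH partners and inhibitors of the MRFs, edgeR and limma-voom called none in all libraries, DESeq2 called 2 higher, edgeR called 1 higher without mEC1 dup/dup replicate 1 and 1 higher with the replicate block, and 2 were lower and 2 higher at an unadjusted p under 0.05. The E proteins, with which the MRFs pair on DNA, had log2 fold changes of 0.14 (Tcf3, adjusted p = 0.0850), -0.13 (Tcf4, adjusted p = 0.498) and -0.05 (Tcf12, adjusted p = 0.668) in the edgeR test. Mdfic, a relative of the MRF inhibitor I-mfa, was the gene of this list without overlap between the groups, at a log2 fold change of -0.16 (adjusted p = 0.0850 from the edgeR test).

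Of 14 other MEF2 family members and cofactors, 13 were tested, 1 fell and none rose, none was higher at an unadjusted p under 0.05, and DESeq2 and limma-voom called 0 higher. Mamstr, which encodes MASTR, a coactivator of MEF2 proteins, was the one that fell, from 25.3 to 18.5 CPM (log2 fold change -0.45, standard error 0.08, edgeR adjusted p = 0.0136). The groups did not overlap for it, and 1 gene of the list was called lower in 10 of 10 fits that each left out a library. The call was lost with a covariate for Xist or for the globin share, and without the 3 mEC1 dup/dup libraries with most Xist reads. Mef2a and Mef2d had log2 fold changes of -0.17 and -0.06 (adjusted p = 0.281 and 0.658 from the edgeR test).

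Among genes that the MRFs and MEF2 factors are known to switch on during differentiation, 4 of 28 fell, 24 did not pass the test and none rose. The median log2 fold change of the list was -0.24, 10 were lower and none higher at an unadjusted p under 0.05, and DESeq2 and limma-voom called 0 higher. Ckm (muscle creatine kinase, log2 fold change -2.25), Acta1 (skeletal actin, -0.88) and Myh3 (embryonic myosin, -0.61) fell without overlap between the groups. Cdkn1a, a cell cycle inhibitor induced as myoblasts leave the cycle, fell by 0.44 with overlap. The part of cells outside muscle in the Cdkn1a level was not tested. The myoblast fusion genes Mymk (0.02) and Mymx (0.12), the adhesion gene Cdh15 (-0.03) and the acetylcholine receptor genes Chrna1 (-0.08), Chrng (-0.08), Chrnb1 (-0.13) and Chrnd (-0.25), with log2 fold changes in parentheses, did not pass the test (adjusted p from 0.523 to 0.962 in the edgeR test). The number of genes of the list called lower was 2 without mEC1 dup/dup replicate 2, 3 or 4 or without WT replicate 1, 3 or 5, and 6 without mEC1 dup/dup replicate 1. It was 8 with the replicate block, and 0 with a covariate for Xist or for the globin share or without the 3 mEC1 dup/dup libraries with most Xist reads.

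Of 32 sarcomere genes, 30 were tested, 18 fell and none rose, and all 30 had a log2 fold change below 0, with a median of -0.61. None was higher at an unadjusted p under 0.05, and DESeq2 and limma-voom called 0 higher. Myh3, Myl1, Tnni1 and Tnnc1 are in both this list and that of the differentiation genes. The largest decreases without overlap were those of Myl2 (-1.92), Myl3 (-1.36), Myoz1 (-1.16), Tnnt3 (-1.06) and Lmod2 (-1.02). Per CPM of Myog, the summed sarcomere level was 20.8 to 25.9 CPM in WT and 13.5 to 15.0 CPM in mEC1 dup/dup. Per 1000 CPM of sarcomere genes, Myf6 was at 1.29 to 1.92 CPM in WT and 0.665 to 1.00 CPM in mEC1 dup/dup. These ratios also did not overlap, so relative to Myog and to the summed sarcomere level alike, Myf6 was lower in every mEC1 dup/dup library. The number of sarcomere genes called lower was 7 without mEC1 dup/dup replicate 2 or replicate 3 and 10 without WT replicate 1, and it was 12 without mEC1 dup/dup replicate 4 or WT replicate 5. It was 0 with a covariate for Xist or for the embryonic globin share, and without the 3 mEC1 dup/dup libraries with most Xist reads.

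**Figure D5:**
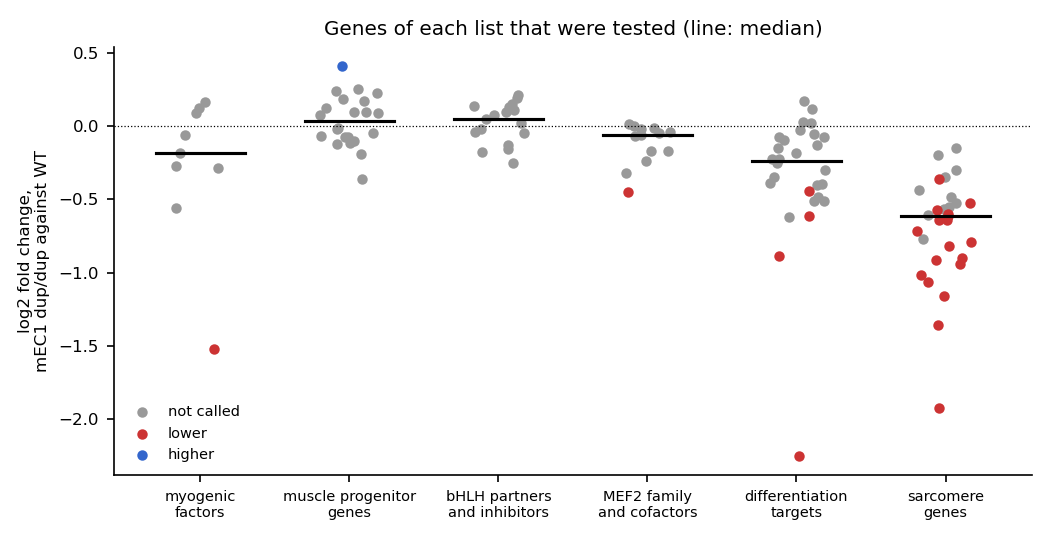
Log2 fold change in mEC1 dup/dup against WT (y axis) of each tested gene of the 9 myogenic factors and of 5 lists of muscle genes, with the list's median as a line. Genes called lower are red, higher blue and not called grey. The medians run from 0.05 for the bHLH partners and inhibitors to -0.61 for the sarcomere genes.

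Genes of other tissues of the prominence were read beside these. Their median log2 fold changes were -0.36 for chondrocyte, -0.28 for mesenchyme, -0.24 for Schwann cell and -0.21 for melanoblast genes. Those of the endothelial and of the smooth and cardiac muscle genes were both -0.05, and that of the outer ear genes was 0.16. Of 12 mesenchyme genes 3 fell (Dpt, Tnmd and Lum, log2 fold changes -0.77, -0.60 and -0.30), and their summed level was 13793 to 21986 CPM in WT and 14525 to 16437 CPM in mEC1 dup/dup. Of 12 chondrocyte genes 1 fell (Snorc, -1.32), and the list summed to 5929 to 9656 CPM in WT and 2584 to 7583 CPM in mEC1 dup/dup, with mEC1 dup/dup replicate 1 lowest. At an unadjusted p under 0.05, 7 mesenchyme genes were lower and 2 higher, and 4 chondrocyte genes were lower and none higher. Without WT replicate 4, 6 mesenchyme genes were called lower, and DESeq2 called 4 lower and 2 higher. Both lists lost all calls with a covariate for Xist or for the globin share and without the 3 mEC1 dup/dup libraries with most Xist reads. The Snorc call was also lost without WT replicate 3, mEC1 dup/dup replicate 3 or mEC1 dup/dup replicate 4. The 10 smooth and cardiac muscle genes summed to 222 to 311 CPM in WT and 241 to 319 CPM in mEC1 dup/dup. Of these, 7 were tested and none was called by edgeR, DESeq2 or limma-voom, while 2 were lower and 1 higher at an unadjusted p under 0.05. The part of these tissues in the levels of the 9 genes was not tested.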

How the data were processed

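Poly(A) RNA of pinna prominences from 5 WT and 5 mEC1 dup/dup embryos at E14.5 was sequenced. The authors used fastp for trimming, STAR (version 2.7.11a) for alignment of the read pairs to GRCm39, and counted reads per gene with featureCounts (version 2.0.6). They deposited raw counts. Annotation release, use of strand and handling of multi-mapping reads are not given in the sources used here, so reads of overlapping antisense genes cannot be told apart. The labels and the paper name different library kits. Each library held between 17461544 and 18462073 counts, a depth at which counting error was largest for Tcf21, Myf6 and Pax3.

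Symbols, positions and exon lengths came from GENCODE M39, which matched 49355 of 53465 genes (unmatched genes held 0.111% of counts). Genes were filtered with filterByExpr, normalized by TMM and tested with edgeR (version 4.0.16, quasi-likelihood, genotype as the only term) in R version 4.3.3, with Benjamini-Hochberg adjustment. The paper names edgeR and limma without the test. Log2 CPM used a prior count of 2. Standard errors are the log2 fold change divided by the square root of F. The steps were tested on simulated counts. No 2 libraries of a genotype were copies (chi-square per degree of freedom from 2.57).

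The members and lists were chosen with earlier results of these data known. Genes named beside the 9 members were taken by rule: up to 5 called genes per list whose groups do not overlap, and the 3 genes most like each member with an average log2 CPM of at least 1 (all but Tcf21). Tbx1, the E proteins, Mdfic, Mef2a, Mef2d, Mymk, Mymx, Cdh15, the acetylcholine receptor genes and Cdkn1a are named for their roles, after their values were seen. Hoxa2, Eya1, Prrx1, Cdh5 and Pecam1 are named as examples of their lists. The alternatives were DESeq2 (version 1.42.0) size factors and its Wald test, upper quartile and total count scaling, limma-voom (limma version 3.58.1), robust estimation, other filters and thresholds, the replicate block, Xist or globin covariates, and libraries left out. Figures used matplotlib version 3.10.9.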

Additional observations from a re-analysis of the deposited data

How the results depend on the processing

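Over all genes, 297 were called lower and 137 higher. The DESeq2 Wald test called 509 lower and 321 higher, an adjusted p of at most 0.01 left 62 and 16, Xist as a covariate left 1 and 2, the globin share 0 and 0, and leaving out the 3 mEC1 dup/dup libraries with most Xist reads 0 and 1. With one library left out, 120 to 476 were lower and 34 to 179 higher; the fewest were called without mEC1 dup/dup replicate 3 and the most without WT replicate 4. Of the 9 members, 1 was called lower and 0 higher in every fit apart from those with Xist, the globin share or without those 3 libraries, which called 0 lower; each of the 10 fits without one library called 1. Myf6 stayed below 0 in all 22 alternatives (-1.68 to -1.19), as did Pax3, Myf5 and Mef2c. With Xist as a covariate the estimates for Pax7 (0.057) and Tcf21 (0.37) turned positive. With the globin share that of Tcf21 (2.39) turned positive, and those of Msc (-0.42), Myod1 (-0.60) and Myog (-0.48) negative. Their adjusted p in this edgeR fit were from 0.898 to 0.936. The globin share separates the genotypes, so this fit cannot estimate a genotype effect apart from it. Pax7 also turned without WT replicate 5 (0.074) or mEC1 dup/dup replicate 4 (0.050), and ranged from -0.15 to 0.074 with one library left out. The cause was not tested. Libraries of both genotypes share replicate numbers but come from different embryos, and the labels tie no number to a litter. Deviations of same-numbered libraries correlated at -0.06 to 0.34, with a mean of 0.16. Pairs of a WT and a mEC1 dup/dup library with different numbers had a mean r of -0.04 and a highest r of 0.27. With the replicate block, 487 genes were lower and 200 higher, Myf6 was at -1.54 (adjusted p = 0.00308, edgeR) and the call of no other member changed. Sarcomere genes called lower were then 25, differentiation genes 8, chondrocyte genes 4, and mesenchyme genes 5 (1 higher). Robust estimation called 13 sarcomere and 2 differentiation genes lower.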
